A study of Mus musculus with 15 samples.

Results

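The genes described here are 10 genes of the brown and beige adipocyte program: Ucp1, Ppargc1a, Cidea, Dio2, Prdm16, Cox8b, Ebf2, Tmem26, Tnfsf9 and Mpzl2. They were chosen by name as genes of that program, with earlier results of these data known. All 10 have a row in the deposited table of raw counts, which holds 18804 genes. The table covers 15 RNA-seq libraries of C57BL/6J mouse adipocytes that were differentiated in culture from mesenchymal stem cells, which the study took from ears. Every culture was induced with methylisobutylxanthine, dexamethasone, insulin and, by the labels, troglitazone, a PPARγ agonist of the thiazolidinedione class. By the labels, day 0 cells stayed at 37°C. Day 1 cells spent 1 day at 31°C and day 12 cells spent 12 days there, with 5 libraries per group. The labels give no age of the cells at harvest. If the groups differed in age, time in culture could not be told apart from temperature, and this was not tested. All 3 groups carry the same genotype, and no source ties a library to an animal, so p-values measure the spread between these libraries, which may be technical. The culture is a model of isolated adipocytes without nerves, blood supply or noradrenaline from a host, and the adipogenic medium was the same in all groups.

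Brown adipocytes, and the beige adipocytes that arise within white fat, burn fuel for heat. In mice, cold acts on them largely through sympathetic nerves: noradrenaline engages β-adrenergic receptors, cyclic AMP rises, protein kinase A is activated, and transcription of Ucp1, Ppargc1a and Dio2 follows. PRDM16 and EBF2 set up the cell type, PGC-1α drives mitochondrial genes, and UCP1 lets protons back across the inner mitochondrial membrane without making ATP. Proteins at the surface of beige cells, such as TMEM26 and CD137, are used to recognize them.

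Total counts per library ran from 64648178 to 133270973, and no pair of replicates was close enough in its counts to be 1 library deposited again. White adipocyte markers were abundant, and their summed level was 5945 to 6516 CPM (reads of the gene relative to the TMM-adjusted depth) at day 0, 7031 to 7533 at day 1 and 5706 to 6334 at day 12. Within that list of 12, Adipoq, which encodes adiponectin, had mean levels of 1095 ± 41.4, 1126 ± 33.5 and 464 ± 9.71 CPM in the order of the days (SD, n = 5). Fabp4, a fatty acid carrier, was at 828 ± 66.0, 1399 ± 62.3 and 1617 ± 75.5 CPM. The summed level of 9 progenitor and fibroblast markers fell in range from 9946 to 10220 CPM at day 0 through 8781 to 9079 at day 1 to 8149 to 8505 at day 12, mostly through Dcn and Col1a1. Of its 7 tested genes only Ly6a was called at day 12, lower, and Pdgfra (0.34) and Pdgfrb (0.49) had positive log2 values. Chondrocyte markers, 5 genes that ear-derived cultures could hold, summed to 3670 to 4402, 3904 to 4062 and 1128 to 1222 CPM, mostly through Comp. Of the 4 tested, 3 were called lower at day 12. Col2a1 went the other way, from 149 ± 15.8 CPM at day 0 to 182 ± 23.9 at day 12 (log2 value 0.29, not called). Macrophage markers (6 genes) summed to 6.96 to 9.44, 10.1 to 13.3 and 5.46 to 6.47 CPM in the order of the days, without overlap. Endothelial markers (5 genes) stayed between 0.907 and 1.77 CPM in sum. Skeletal muscle markers (6 of 7 listed genes in the table) summed to 1.04 to 1.41, 0.970 to 1.62 and 0.424 to 0.887 CPM. Ckm was at 0 in all libraries of day 1 and day 12, Myog in those of day 1, and Myh4 and Matn1 in those of day 12. Against day 0, the adipocyte sum thus rose at day 1 and overlapped at day 12, and the fibroblast sum fell at both times. The macrophage sum rose at day 1 and was lower at day 12. The chondrocyte and skeletal muscle sums were lower at day 12. The part of these shifts in the results below was not tested. Cirbp, a cold-inducible RNA-binding protein, was 5.98-fold higher than at day 0 in the cells of day 1 and 3.77-fold higher in those of day 12, with no overlap. In RNA from whole cultures, fewer cells of a type and less RNA per cell cannot be told apart.

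Per length, Dio2 was the most abundant of the 10 genes in every group and Ucp1 the least. Levels per length are given as RPKM, which is CPM divided by the exon length in kilobases. At day 0, Dio2 led with 28.2 ± 6.21 RPKM, followed by Tnfsf9 (4.95 ± 0.427), Prdm16 (3.51 ± 0.165), Tmem26 (2.197 ± 0.245), Ppargc1a (0.512 ± 0.0425) and Mpzl2 (0.380 ± 0.0342), each with libraries all above those of the next gene (SD, n = 5). Ebf2 (0.0926 ± 0.0143), Cox8b (0.0762 ± 0.0776) and Cidea (0.0499 ± 0.0305) came next, and Cox8b overlapped with both Ebf2 and Cidea over the libraries. Ucp1 was last in every group, at 0.00133 ± 0.00298, 0.0137 ± 0.0157 and 0.00936 ± 0.0109 RPKM at day 0, day 1 and day 12.

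The order changed with time at 31°C. Prdm16 stood second at day 12 with 4.84 ± 0.241 RPKM, above all libraries of Tnfsf9 (2.01 ± 0.306), which had been second at day 0. At day 1 the libraries of these genes overlapped (3.30 ± 0.199 and 2.77 ± 0.282 RPKM). Ppargc1a was below Mpzl2 at day 12 (0.181 ± 0.0637 against 0.519 ± 0.0537 RPKM, no overlap), and its libraries there overlapped with those of Cox8b (0.121 ± 0.0767).

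**Figure D1:**
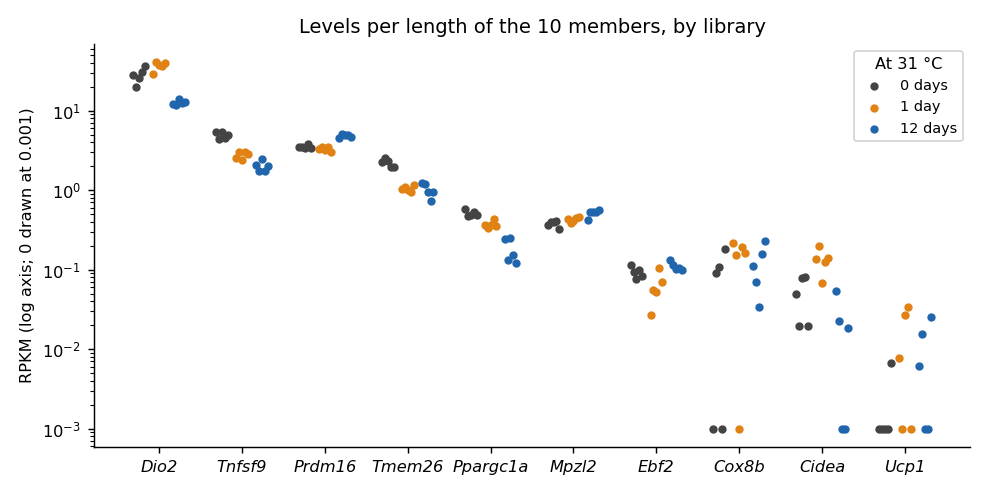
Level per length (RPKM, log axis) of the 10 members in each of the 15 libraries, in the order of their day 0 means, with values of 0 drawn at 0.001. Dio2 lies highest in every group, Tnfsf9 falls below Prdm16 by day 12, and Ucp1 has the lowest mean in every group.

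Of the 10 members, 7 had enough counts to be tested, and at 31°C those that changed were mostly lower. A member is called changed here where the adjusted p of edgeR's quasi-likelihood test is under 0.05 over all 14293 genes tested and the fold change is over 1.5. At day 1, 0 members were called higher and 2 lower (Tmem26 and Tnfsf9), where 7.71% of all genes tested were called higher and 13.4% lower. At day 12, 0 were called higher and 4 lower than at day 0 (Ppargc1a, Dio2, Tmem26 and Tnfsf9), against 13% and 16.2% of all genes tested. Between day 1 and day 12, 1 member was called higher (Ebf2) and 2 lower (Ppargc1a and Dio2), against 10.6% and 8.53%. The median log2 fold change of the 7 was -0.47 at day 1, -1.12 at day 12 and -0.04 from day 1 to day 12, where the medians of all genes tested were -0.01, 0.01 and 0.01. Groups did not overlap for 3, 6 and 3 of the 7 members in these comparisons, and for 57.4%, 64.6% and 52.5% of all genes tested.

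The direction at day 12 rests on the scaling. Library sizes were scaled by TMM, which sets the bulk of genes to no change, and size factors of the RLE type gave the same calls. When libraries were scaled instead to the summed counts of 5 of the study's qPCR reference genes (B2m, Gapdh, Ppia, Hprt and Tbp), the median of all genes moved to 1.22 on the log2 scale at day 12, and 83% of all genes were called higher. Of all genes called at day 12, 55.6% were lower by TMM, 35.9% with total counts, 10.9% with the geometric mean of the reference genes and 3.15% with their sum. Of the summed counts, B2m gave 60.6%, and by TMM B2m itself was at -2.12 (log2) at day 12. Under that scaling 0 members were called lower and 3 higher (Prdm16, Ebf2 and Mpzl2), and Dio2 and Tmem26 turned to 0.05 and 0.09. Relative to the median of all genes, the values of Ppargc1a, Dio2, Tmem26 and Tnfsf9 under the same scaling were -1.5, -1.17, -1.13 and -1.31. All changes below are relative to the bulk of genes in this sense.

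**Figure D2:**
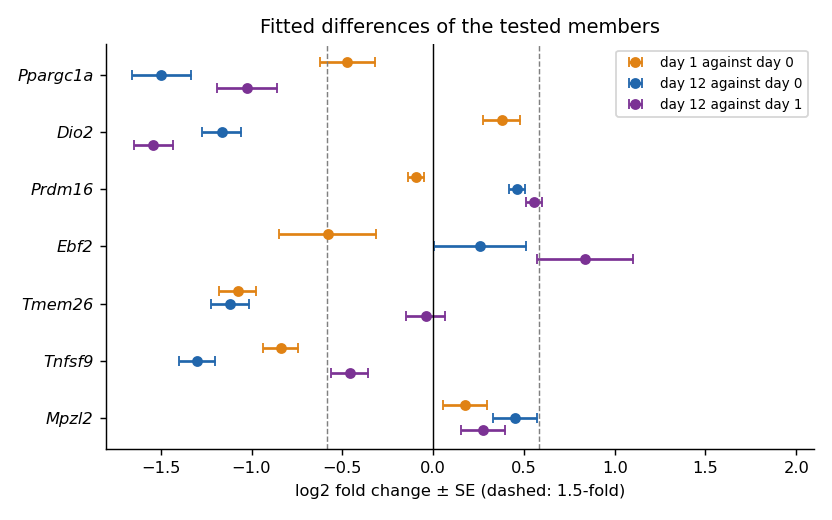
Fitted log2 fold change ± SE (edgeR, TMM scaling) of the 7 tested members for day 1 against day 0, day 12 against day 0 and day 12 against day 1, with dashed lines at a fold of 1.5. Ppargc1a, Dio2, Tmem26 and Tnfsf9 lie left of the lower line at day 12, and under scaling to the summed reference genes Dio2 and Tmem26 turn to 0.05 and 0.09.

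Ppargc1a, Dio2 and Ucp1 are genes that cyclic AMP is known to induce, so the DNA before their start sites is shown: Ppargc1a and Dio2 were lower at day 12, and Ucp1 was near 0 throughout. The 250 bases before the RefSeq start site (build GRCm38.p6) were read for Ppargc1a at chr5:51567726-51567975 on the minus strand, for Dio2 at chr12:90739039-90739288 on the minus strand and for Ucp1 at chr8:83290098-83290347 on the plus strand, each written 5′ to 3′ along its gene. Capitals mark the cAMP response element TGACGTCA or its half-site TGACG, on either strand.
Ppargc1a: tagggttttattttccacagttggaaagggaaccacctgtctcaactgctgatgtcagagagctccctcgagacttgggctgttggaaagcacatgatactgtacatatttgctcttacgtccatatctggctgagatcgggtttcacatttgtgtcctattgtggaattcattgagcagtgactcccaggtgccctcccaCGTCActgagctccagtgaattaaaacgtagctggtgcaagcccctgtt
Dio2: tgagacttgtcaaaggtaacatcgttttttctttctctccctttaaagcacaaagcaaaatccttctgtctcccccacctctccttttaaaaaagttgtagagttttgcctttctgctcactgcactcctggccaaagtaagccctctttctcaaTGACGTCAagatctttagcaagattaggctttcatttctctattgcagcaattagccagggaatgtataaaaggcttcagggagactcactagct
Ucp1: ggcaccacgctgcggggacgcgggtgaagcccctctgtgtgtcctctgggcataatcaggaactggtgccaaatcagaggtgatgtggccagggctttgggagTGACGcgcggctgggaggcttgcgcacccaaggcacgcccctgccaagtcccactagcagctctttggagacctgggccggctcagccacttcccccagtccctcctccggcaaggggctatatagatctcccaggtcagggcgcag
The Dio2 stretch holds the full element at bases 95 to 88 before the start, which counts as a half-site on both strands. Ppargc1a holds a half-site on the minus strand at bases 49 to 45, and Ucp1 holds one on the plus strand at bases 147 to 143. Promoter sequences were at hand for 6 of the 10 members, and in windows of 300 bases (250 before and 50 after the start) the full element was found in 1 of the 6 and the half-site in these 3. Over all 32851 RefSeq promoter windows of that length, 1.79% held the full element and 20.8% the half-site. Other short motifs were searched too: AGGTCA, the half-site of nuclear receptors (16.3% of all windows), was found for Ucp1 at bases 14 to 9 before the start, TATAAA (13.6%) for Dio2 at bases 30 to 25 and for Cox8b at bases 4 to 9 after the start, and CCCNNGGG, the core of EBF sites (13.7%), for Tmem26 at bases 215 to 208. A match is a description of the letters and does not show that a factor binds there.

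Ppargc1a (chromosome 5, 51454250 to 51567726, minus strand, GRCm38) encodes PGC-1α, the coactivator that drives mitochondrial biogenesis and thermogenic genes. It was at 3.75, 3.09, 3.13, 3.39 and 3.18 CPM in the libraries of day 0. It was at 2.34, 2.15, 2.34, 2.80 and 2.31 CPM at day 1, and at 1.58, 0.845, 1.64, 0.984 and 0.786 CPM at day 12. The groups stepped down without overlap from day 0 to day 1 to day 12, and at day 12 replicates 1 and 3 lay above the other 3 libraries. The log2 fold change was -0.47 ± 0.15 (SE) at day 1, under the fold limit though with an adjusted p of 0.00763 by edgeR, and -1.497 ± 0.161 at day 12 (adjusted p = 8.94e-09). From day 1 to day 12 it was a further -1.02 ± 0.17 (adjusted p = 7.41e-06). With replicates 1 and 3 of day 12 left out together, a choice made after their values were seen, Ppargc1a was called lower at day 12 too, at -1.93.

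Dio2 (chromosome 12, 90724552 to 90738438, minus strand) encodes type 2 deiodinase, which turns thyroxine into the active thyroid hormone inside the cell. It was at 162, 116, 152, 177 and 215 CPM in the day 0 libraries. It was at 168, 236, 217, 212 and 233 CPM at day 1, and at 69.6, 67.6, 81.7, 72.7 and 74.8 CPM at day 12. Dio2 was the most spread of the 7 tested members at day 0, with a coefficient of variation of 22.01%, and its day 1 libraries overlapped with day 0. The libraries of day 12 lay together below all the others, with a coefficient of variation of 7.48%. The change at day 1 was a log2 fold change of 0.38 ± 0.10 with an adjusted p of 0.00254 by edgeR, under the fold limit. At day 12 it was -1.16 ± 0.11 against day 0 (adjusted p = 5.62e-10) and -1.54 ± 0.11 against day 1 (adjusted p = 6.84e-12), so that the mean at day 12 was 44.6% of day 0 and 34.4% of day 1. Of its exon bases, 1.72% are shared with Gm26512 on the opposite strand. Whether counting used strand is not given in the sources used here, so reads of such shared bases cannot be told apart.

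Prdm16 and Ebf2 encode the nuclear factors that specify brown and beige cells. Prdm16 (chromosome 4, 154316125 to 154636873, minus strand) was at 30.2, 29.9, 29.3, 32.6 and 29.0 CPM at day 0. It was at 28.4, 29.6, 27.6, 30.3 and 25.9 CPM at day 1, and at 38.9, 43.9, 42.0, 43.1 and 40.2 CPM at day 12. Every library of day 12 lay above all 10 of the other groups, which overlapped with each other. Its log2 fold change was -0.09 ± 0.04 at day 1 (adjusted p = 0.0667 in the edgeR fit), 0.46 ± 0.04 at day 12 (adjusted p = 8.38e-10) and 0.55 ± 0.04 from day 1 to day 12 (adjusted p = 6.98e-11). Prdm16 thus passed the p threshold at day 12 and missed the fold limit, with a 95% interval of 0.38 to 0.55. With total counts as the scale, the median of all genes was 0.205 at day 12 and the value of Prdm16 was 0.66, past the fold limit.

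Ebf2 (chromosome 14, 67233292 to 67430918, plus strand) had 43 to 81 counts per library at day 0, 12 to 43 at day 1 and 42 to 74 at day 12. In CPM it was at 0.643, 0.527, 0.433, 0.557 and 0.469 at day 0. It was at 0.154, 0.319, 0.294, 0.600 and 0.402 CPM at day 1, and at 0.741, 0.656, 0.583, 0.599 and 0.569 CPM at day 12. Day 1 held the lowest libraries and the widest spread, with a coefficient of variation of 46.4%, and its replicate 4 reached the level of the other groups. The log2 fold change was -0.58 ± 0.27 at day 1 (adjusted p = 0.0555 in the edgeR fit), 0.26 ± 0.25 at day 12 against day 0 (adjusted p = 0.36) and 0.84 ± 0.27 at day 12 against day 1 (adjusted p = 0.00792). The day 1 value became a call without replicate 4 of day 1 (-0.83, adjusted p = 0.00753 by edgeR), without replicate 3 of day 0 (-0.64, adjusted p = 0.0457) and in the 11 libraries of the first label series alone (-1.08, adjusted p = 0.0054). With the label series as a term in the fit it was -0.66 (adjusted p = 0.0382 by edgeR). It shrank most without replicate 1 of day 1, to -0.40 (adjusted p = 0.159), so its size rested on single libraries in either direction. Of its exon bases, 7.47% are shared with Gm10860 on the opposite strand. The series are the sets of library numbers in the labels, 1 of which holds 11 libraries and the other 1 library of day 0, 2 of day 1 and 1 of day 12.

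**Figure D3:**
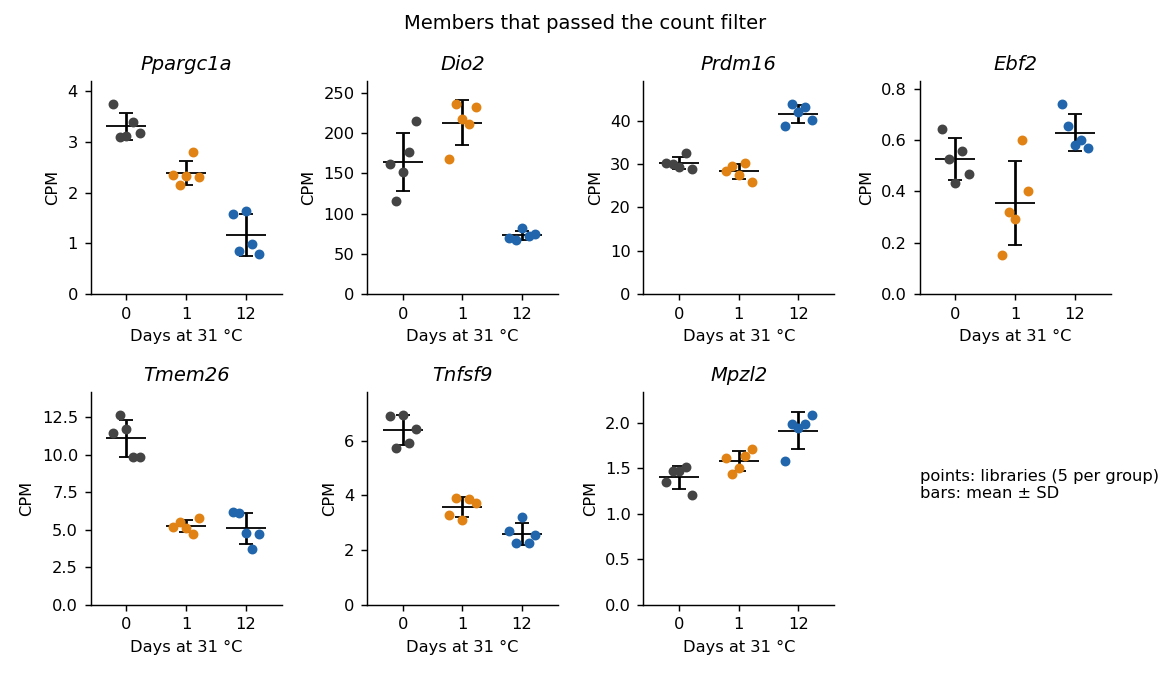
CPM of the 7 members that passed the count filter in every library, by days at 31°C, with bars for the mean ± SD (n = 5), each panel on its own axis from 0. Ppargc1a steps down without overlap, Dio2 is low at day 12 alone, Tmem26 and Tnfsf9 are already low at day 1, and Prdm16 is higher at day 12.

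The remaining tested members encode proteins of the cell surface. Tmem26 (chromosome 10, 68723646 to 68782650, plus strand), a membrane protein used as a mark of beige cells, was at 11.4, 12.7, 11.7, 9.83 and 9.85 CPM at day 0. It was at 5.16, 5.48, 5.10, 4.73 and 5.79 CPM at day 1, and at 6.19, 6.08, 4.75, 3.71 and 4.73 CPM at day 12. All libraries at 31°C lay below all those of day 0, and the groups of day 1 and day 12 overlapped. The log2 fold change was -1.08 ± 0.10 at day 1 (adjusted p = 1.81e-09 by edgeR) and -1.12 ± 0.10 at day 12 (adjusted p = 6.78e-10). From day 1 to day 12 it was -0.04 ± 0.11 (adjusted p = 0.753), with a 95% interval of -0.25 to 0.17.

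Tnfsf9 (chromosome 17, 57105325 to 57107757, plus strand) encodes the ligand of CD137. It was at 6.89, 5.74, 6.95, 5.91 and 6.42 CPM at day 0. It was at 3.29, 3.90, 3.10, 3.88 and 3.72 CPM at day 1, and at 2.69, 2.24, 3.21, 2.25 and 2.56 CPM at day 12. Both groups at 31°C lay below all libraries of day 0, and they overlapped with each other through replicate 3 of day 1 and replicate 3 of day 12. The log2 fold change was -0.84 ± 0.10 at day 1 (adjusted p = 3.76e-08 in the edgeR fit), -1.30 ± 0.10 at day 12 (adjusted p = 1.8e-11) and -0.46 ± 0.10 from day 1 to day 12 (adjusted p = 0.000383), the last under the fold limit. Gm11110 on the opposite strand shares 14.9% of its exon bases.

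The receptor of that ligand, CD137, is encoded by Tnfrsf9, a beige marker outside the 10 genes, and it was named for its decrease among the listed beige genes. Its mean level fell from 147 ± 17.3 to 89.1 ± 4.15 and then to 42.1 ± 3.95 CPM (SD, n = 5), and no group overlapped with another. After 1 day the log2 fold change was -0.72 ± 0.06 (adjusted p = 3.6e-10 by edgeR), and the mean after 12 days was 28.7% of day 0 (adjusted p = 1.25e-17). Ligand and receptor thus both fell at each time, the receptor from a higher level per length (59.0 ± 6.95 RPKM at day 0, against 4.95 ± 0.427 for the ligand).

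Mpzl2 (chromosome 9, 45039799 to 45054015, plus strand), an adhesion protein of the immunoglobulin superfamily, was at 1.35, 1.46, 1.47, 1.51 and 1.20 CPM at day 0. It was at 1.61, 1.43, 1.5, 1.63 and 1.71 CPM at day 1, and at 1.57, 1.98, 1.94, 1.98 and 2.09 CPM at day 12. The libraries of day 12 lay above those of day 0, while day 1 overlapped with both. The log2 fold change was 0.18 ± 0.12 at day 1 (adjusted p = 0.199 in the edgeR fit), 0.45 ± 0.12 at day 12 (adjusted p = 0.00164) and 0.27 ± 0.12 from day 1 to day 12 (adjusted p = 0.0489), none past the fold limit. With total counts as the scale the day 12 value was 0.64 and passed it. Gm48840 on the opposite strand shares 58.1% of the exon bases of Mpzl2, so its counts are uncertain.

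Ucp1, Cidea and Cox8b, which mark mature brown adipocytes, stayed near the limit of detection in all 3 groups. A library was taken to detect a gene only above 3 counts, which corresponds to 0.0238 to 0.0428 CPM at these depths, and intervals below cover counting error only. Ucp1 (chromosome 8, 83290352 to 83298452, plus strand), the uncoupling protein of brown fat, had 0, 0, 0, 0 and 1 counts in the day 0 libraries. It had 1, 0, 4, 4 and 0 counts at day 1, and 1, 2, 0, 0 and 4 counts at day 12. Counts over the limit were thus found in 0 of 5, 2 of 5 and 1 of 5 libraries. Summed over each group, 1, 9 and 7 counts correspond to 0.00200 CPM (95% exact Poisson interval 5.06e-05 to 0.0111), 0.0216 (0.00989 to 0.0411) and 0.0163 (0.00657 to 0.0337). The mean levels did not differ beyond the spread of libraries (exact two-sided permutation p = 0.167 for day 1, 0.286 for day 12 and 0.587 between them, n = 5 per group). The ratio of summed counts to those of day 0, which rest on 1 count, was 10.8 for day 1 (95% interval 1.5 to 474) and 8.17 for day 12 (1.05 to 368), intervals that leave out the spread between libraries. In the fit without a filter, edgeR gave an adjusted p of 0.0707 for day 1 and 0.128 for day 12. No change of Ucp1 thus passed a test across libraries, and the upper bound at day 12 was 0.0337 CPM, below the level of every library of the 7 tested members.

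Cidea (chromosome 18, 67343604 to 67367785, plus strand) encodes a protein of lipid droplets that is abundant in brown fat. It had 7, 2, 9, 8 and 2 counts at day 0. It had 12, 16, 7, 10 and 16 counts at day 1, and 6, 2, 0, 0 and 2 counts at day 12. All 5 libraries of day 1 were over 3 counts, against 3 of day 0 and 1 of day 12, and in CPM the libraries of day 1 (0.0761 to 0.222) lay above all those of day 12 (0 to 0.0601). The summed counts were 28, 61 and 10, and the count ratio of day 12 to day 1 was 0.159 (95% interval 0.0727 to 0.313), while that of day 1 to day 0 was 2.62 (1.65 to 4.26). The exact two-sided permutation p was 0.00794 for day 12 against day 1, the smallest that 5 against 5 allows, 0.0238 for day 1 against day 0 and 0.127 for day 12 against day 0. These p-values are not adjusted, and none of the 9 such tests passed 0.05 after adjustment. A test that alone reached the smallest possible p could not pass that adjustment, so the adjusted result cannot decide on Cidea. In a fit of all genes without a filter, adjusted over 18804 genes, the log2 fold change of day 12 against day 1 was -2.65 ± 0.73 (adjusted p = 0.0028 by edgeR), and that of day 1 against day 0 was 1.40 ± 0.65 (adjusted p = 0.072). The related Cidec, a white adipocyte marker that also coats lipid droplets, was far more abundant and fell at day 1, from 177 ± 6.41 to 28.8 ± 2.30 CPM (-2.62 on the log2 scale, adjusted p = 1.16e-22 by edgeR). By day 12 Cidec was at 59.0 ± 3.68 CPM, higher than at day 1 (1.03, adjusted p = 1.97e-15) and lower than at day 0 (-1.59, adjusted p = 1.08e-19).

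Cox8b (chromosome 7, 140898945 to 140900446, minus strand), a subunit of cytochrome c oxidase used in brown fat and muscle, had 0, 3, 4, 0 and 6 counts at day 0. It had 6, 4, 0, 5 and 6 counts at day 1, and 4, 2, 1, 4 and 8 counts at day 12. Libraries over 3 counts numbered 2, 4 and 3 of 5, and the groups overlapped throughout. Summed counts of 13, 21 and 19 gave 0.0260 CPM (95% exact Poisson interval 0.0138 to 0.0444), 0.0505 (0.0313 to 0.0772) and 0.0444 (0.0267 to 0.0693). The exact permutation p was 0.222 at day 1, 0.405 at day 12 and 0.635 between them.

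**Figure D4:**
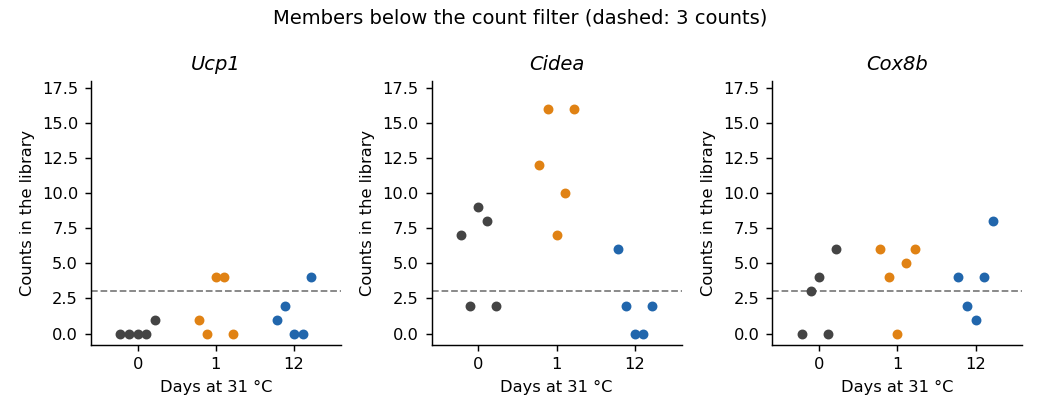
Counts of Ucp1, Cidea and Cox8b in each library by days at 31°C, with a dashed line at 3 counts, the limit above which a library was taken to detect a gene. Ucp1 never exceeds 4 counts, Cox8b never exceeds 8, and Cidea is over the line in all 5 libraries of day 1 and in 1 of day 12.

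The members did not move as 1 block across the libraries. As a description over the 15 libraries, which fall into 3 groups that set most of the variation, the Pearson correlation of log2 CPM was 0.88 between Ppargc1a and Tnfsf9, 0.87 between Tmem26 and Tnfsf9, 0.76 between Ppargc1a and Dio2 and 0.25 between Dio2 and Tmem26. Prdm16 ran against them, with -0.92 to Dio2, -0.81 to Ppargc1a, -0.63 to Tnfsf9 and -0.40 to Tmem26. So did Mpzl2, with -0.85 to Ppargc1a, -0.80 to Tnfsf9, -0.69 to Tmem26 and -0.69 to Dio2. The correlation of Prdm16 and Mpzl2 was 0.73. Among 12130 other genes of at least 1 CPM, those most like Dio2 were Cd200 (0.98), Agt (0.98) and Uap1 (0.98), and those most like Ppargc1a were Jakmip3 (0.96), Ggct (0.95) and Cpeb1 (0.94). The nearest to Prdm16 were Pfn1 (0.98), Baz1a (0.97) and Als2cl (0.97), to Tmem26 Cacna1h (0.97), Actr3b (0.97) and Cd99l2 (0.97), and to Tnfsf9 Sema3g (0.98), Ddo (0.98) and Inhba (0.98). Mpzl2 had the weakest neighbours of the 6, Mark4 (0.91), Nfxl1 (0.91) and Guf1 (0.90).

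Other genes of the same biology were followed as lists. Of 24 further brown adipocyte genes, 19 were tested. After 1 day 1 of them was called higher and 3 lower, with a median log2 fold change of -0.03, and after 12 days 2 were called higher and 5 lower, with a median of -0.10. As shares these are 5.26% higher and 15.8% lower after 1 day, near the 7.71% and 13.4% of all genes tested, and 10.5% and 26.3% after 12 days, against 13% and 16.2%. Among those averaging at least 1 CPM over all libraries, Lhx8, a developmental transcription factor, rose from 1.68 to 3.42 and 3.76 CPM. Its log2 fold change after 12 days was 1.16 (adjusted p = 1.34e-08 by edgeR). P2rx5, an ATP-gated channel, was higher at day 12 (0.64, adjusted p = 7.98e-06), while Pdk4, the kinase that restrains pyruvate dehydrogenase, fell by 1.24 on the log2 scale at day 12 (adjusted p = 1.92e-13). Mtus1 fell by 0.94 (adjusted p = 3.08e-17). Cpt1b, Otop1 and Slc27a2 never exceeded 10 counts.

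Further beige adipocyte genes numbered 15, of which 14 were in the table and 10 were tested. Of these, 1 was called higher and 4 lower after 1 day, with a median log2 fold change of -0.52, and 0 were called higher and 5 lower after 12 days, with a median of -0.60. The share called lower was 40% and then 50%, where it was 13.4% and 16.2% over all genes tested. Besides Tnfrsf9, Sp100, which encodes a nuclear body protein, fell from 36.2 to 7.75 and 8.70 CPM (-2.06 on the log2 scale after 12 days, adjusted p = 1.26e-16 by edgeR), and Klhl13, an adaptor of a ubiquitin ligase, fell from 20.4 to 10.7 and 10.4 (-0.97, adjusted p = 1.21e-13). Tbx1 never exceeded 10 counts. Under scaling to the summed reference genes, 5 genes of this list were called higher and 3 lower after 12 days, while its median less that of all genes was again -0.61.

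The other lists held activators, repressors and the input of cold and hormones. Of 21 activators and partners of the program, 19 were tested, and 1 was called higher in either comparison with day 0, while 3 were called lower after 1 day and 2 after 12 days (medians -0.06 and -0.16). The shares called lower, 15.8% and 10.5%, were near or below those of all genes tested (13.4% and 16.2%), and so was the share called higher, 5.26%, against 7.71% and 13%. Pparg, the master regulator of adipogenesis, fell by 0.59 on the log2 scale at day 12 (adjusted p = 5.27e-14 by edgeR). Hlx, a homeobox factor, rose by 0.75 (adjusted p = 4.68e-08). Irf4 was also called lower at day 12 (-1.53) but averaged under 1 CPM over all libraries. Its mean was 1.37 CPM at day 0 and 0.480 CPM at day 12. Of 12 repressors, 11 were tested (medians -0.16 and -0.05), and 1 (9.09%, below the share over all genes) was called lower in either comparison, after 12 days Foxo1 (-0.73, adjusted p = 7.12e-17 by edgeR). With total counts as the scale, Pparg (-0.40) and Foxo1 (-0.53) were no longer called after 12 days. Esrrb among the activators and Mstn among the repressors never exceeded 10 counts.

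The list of 15 genes of cold and hormone input held the largest change among the genes of these lists. Of 14 tested, 3 were lower at day 1 and 5 at day 12, with 0 higher at either (medians -0.03 and -0.18). The shares called lower were 21.4% and 35.7%, against 13.4% and 16.2% of all genes tested, and 7.71% and 13% of all genes were called higher. Adrb3, the β3-adrenergic receptor of rodent adipocytes, fell from 56.4 ± 2.91 to 10.4 ± 0.752 and then to 0.819 ± 0.257 CPM (SD, n = 5). On the log2 scale that is -2.44 after 1 day (adjusted p = 2.52e-19 by edgeR) and -6.10 after 12 days (adjusted p = 2.13e-24). Of its exon bases, 18.8% are shared with Gm45470 on the opposite strand. Dio3, which inactivates thyroid hormone, fell by 0.80 on the log2 scale at day 12 (adjusted p = 5.37e-07) and Thrb, a thyroid hormone receptor, by 0.64 (adjusted p = 2e-12), the last not called with total counts as the scale (-0.45). Dio2 and Dio3, which act on thyroid hormone in opposite ways, were thus both lower at day 12, and Dio1 never exceeded 10 counts. Under scaling to the summed reference genes Adrb3 was still called lower at day 12 (-4.89), while Dio3 (0.41), Thrb (0.57), Pparg (0.62), Foxo1 (0.48), Mtus1 (0.27) and Klhl13 (0.24) turned positive.

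**Figure D5:**
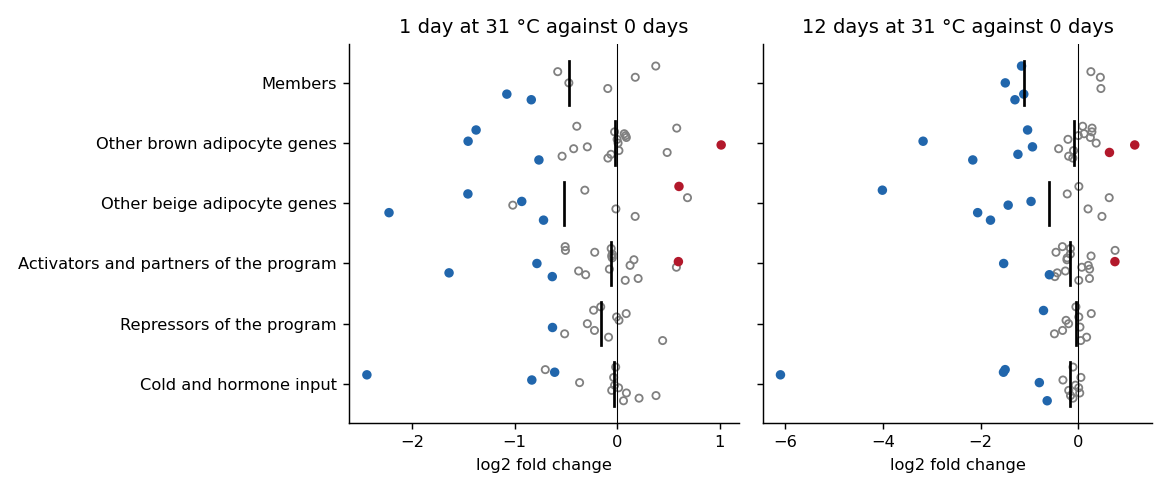
Fitted log2 fold change (TMM scaling) of each tested gene of the members and the 5 lists at day 1 and at day 12 against day 0, with filled points for genes called higher (red) or lower (blue), open points for the rest and a black bar at each list's median. The members and the beige list have medians of -0.47 and -0.52 at day 1 and -1.12 and -0.60 at day 12, and Adrb3 lies at -6.10.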

How the data were processed

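The authors sequenced RNA of cultured adipocytes, checked reads with FastQC, aligned them to mouse build mm10 with TopHat2 2.0.13 and Bowtie2 2.2.1, and counted reads per gene with HTSeq, per the submitters' processing notes. Deposited values used here were these raw counts, 1 column per library. A second deposited table holds regularized log2 values from the authors' DESeq2 run, used as an alternative only. Tables of the authors' own comparisons (fold change and p-value columns) were not used.

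The labels gave each library's group and replicate number. Counts were tested with edgeR 4.0.16 (R 4.3.3): filterByExpr with a minimum count of 10 (14293 genes kept), TMM scaling, and a quasi-likelihood fit to all 15 libraries, with Benjamini-Hochberg adjustment over all genes tested. SE is the log2 fold change divided by the root of F. CPM and RPKM used TMM-scaled library sizes and GENCODE vM21 exon lengths (GRCm38). Members under the filter were given as counts and compared by exact permutation of mean CPM. Log2 CPM for correlations had a prior count of 2. Each step across genes was tested on simulated counts. The alternatives were limma 3.58.1, DESeq2 1.42.0, other scalings and filters, the library series, the replicate number and leaving out each library; scaling to the geometric mean of the reference genes was chosen after seeing the data. Promoter windows were RefSeq's (GRCm38.p6). Lists matched by symbol, except Gk and Adgre1, found under older symbols.

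The members and lists were chosen with earlier results of these data known. Named list genes were up to 4 per list, called at day 12 against day 0, averaging 1 CPM or more, with the largest changes (Cidec and Tnfrsf9 among them). Genes given outside this rule include Kcnk3, Ucp3, Cox7a1, Irf4 and Col2a1. For each member of at least 1 CPM, the 3 genes most correlated with it were named. The values of 1 further gene that this rule names are not reported here.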

Additional observations from a re-analysis of the deposited data

Results flagged for a closer look

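In the 30 groups of 5 libraries checked, 3 held a library far from the other 4, where chance gives about 1 in 20 for continuous values. Ucp1 was at 0.0109 CPM in replicate 5 of day 0, which is 1 count, with the other 4 libraries at 0, so that 1 read sets this gap and the chance rate has no meaning for it. Cox8b was at 0 CPM in replicate 3 of day 1, where the others were at 0.0555 to 0.0768. Mpzl2 was at 1.57 CPM in replicate 1 of day 12, where the others were at 1.94 to 2.09.

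For 3 members the effect of 12 days differed from that of 1 day by the test of the difference itself with a fold over 1.5, and for 6 by its adjusted p alone (edgeR). That test is the comparison of day 12 with day 1, since both effects are taken against the same day 0 libraries. The effect at day 12 less that at day 1 was -1.02 for Ppargc1a, -1.54 for Dio2 and 0.84 for Ebf2, on the log2 scale. Dio2 had a positive value at day 1 (0.38, under the fold limit) and a negative one at day 12 (-1.16).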

How the results depend on the processing

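Of 450 values of single members with 1 library left out, 444 kept their direction and call, and of 279 under other settings, 248 did. Leaving out 1 library gave 2 to 3 members called at day 1, 4 at day 12 and 3 from day 1 to day 12. Dropping the fold limit gave 4 of 7 members at day 1 and 6 in each of the other comparisons, where 35.3% of all genes were then called higher and 36.2% lower at day 1, 39.2% and 37.4% at day 12, and 34.3% and 32.8% from day 1 to day 12. Scaling to the summed reference genes gave 5 from day 1 to day 12, all higher, where 88.3% of all genes were called higher, and reversed Dio2 (0.0507) and Tmem26 (0.0933) at day 12, and Ppargc1a (0.11), Tmem26 (1.10) and Tnfsf9 (0.67) from day 1 to day 12; the count of 3 at day 12 holds different genes from the 4 called by TMM. The geometric mean of the same genes, a scaling added after these values were seen, moved the median of all genes to 0.61 at day 12, gave 5 members (3 higher, 2 lower) at day 12, where 51.3% of all genes were called higher and 6.25% lower, and reversed Tmem26 (0.55) and Tnfsf9 (0.13) from day 1 to day 12. At day 12 it left Ppargc1a at -0.90 and Tnfsf9 at -0.70, both called lower, and Dio2 at -0.56 and Tmem26 at -0.51, under the fold limit. With total counts Tmem26 was 0.13 from day 1 to day 12, and without replicate 4 of day 12 it was 0.0480, in a range of -0.12 to 0.0480. Ucp1 from day 1 to day 12 ranged from -0.0136 to 0.00125 CPM, reversed without replicate 4 of day 1. With total counts 35.9% of all calls at day 12 were lower, against 55.6% by TMM. Limma on the log2 values moved Ebf2 from day 1 to day 12 to 0.24, with no call. Tnfsf9 from day 1 to day 12 was called (-0.60) without replicates 1 and 3 of day 12.

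The numbers of the replicates did not pair the libraries: same-numbered deviations had correlations of -0.05 to 0.09, with 0 of 15 pairs over 0.1, and 10 of 30 best matches had the same number. With the replicate block, 2, 4 and 3 members were called, as without it. With 5 libraries per group and counts of 0 to 8, changes of Ucp1 and Cox8b could not be resolved.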
